A study of Sus scrofa with 4 samples.

Results

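The UBE2 genes encode ubiquitin-conjugating enzymes, and 32 of the 16050 porcine genes with expression values carried a symbol that starts with UBE2. All rows with values under such a symbol were taken, whatever their level, and 1 further row, UBE2QL1, was listed without values. The libraries were made from mature (metaphase II) porcine oocytes that had been cultured in vitro as cumulus-oocyte complexes, either in maturation medium without added Cu (Control) or in the same medium with copper sulfate (Cu). The labels give no dose. Maturation lasted up to 44 h, and 25 μg/mL was the concentration used after an initial dose series. Each library held 3 oocytes from slaughterhouse ovaries, and 4 libraries were analysed here, namely Control 1 and 2 and Cu 1 and 3, with Control and Cu meaning the libraries so labelled. The direction of these labels is in doubt. The doubt rests on 4 genes of oxidative phosphorylation, ATP5PF, NDUFB3, NDUFAB1 and NDUFA13. The paper reports them as lower in Cu-exposed oocytes, both by sequencing and by quantitative PCR. Here they were higher in both libraries labelled Cu than in both labelled Control, as were 25.4% of all tested genes. If the labels were exchanged, every difference between Cu and Control given here would change sign. Neither the age of the animals nor the number of animals behind a library is given in the sources used here, so every p-value measures only the spread between these 4 libraries.

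Ubiquitin is attached to proteins in a relay in which an E1 enzyme activates it, an E2 enzyme carries it on a cysteine, and an E3 ligase brings the loaded E2 to the target. The E2 largely sets whether a single ubiquitin or a chain is built and how the chain is linked, and some E2 enzymes carry SUMO, NEDD8 or ISG15 in its place. In oocytes, the anaphase-promoting complex (APC/C), a large E3 ligase, works with UBE2C and UBE2S to destroy cyclin B and securin, which lets homologous chromosomes part and the first polar body form. A mature oocyte transcribes little and relies on stored mRNA, whose poly(A) tails lengthen and shorten during maturation. Since the cDNA was primed with oligo dT, the amount of an mRNA and the length of its tail cannot be told apart in these libraries.

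The values were FPKM, fragments scaled to transcript length and library total. This scaling lets levels be set side by side between genes, but it does not remove differences in tail length. The number of reads behind a value is unknown. Summed over all genes, FPKM lay between 616082 and 672681 in the 4 libraries, and 7923 to 9364 genes reached 1 FPKM, the highest number being that of Cu 1. All 15 oocyte markers with values reached 1 FPKM in at least 1 library, with summed levels of 35797 and 35596 FPKM in Control 1 and Control 2 and 28913 and 28273 FPKM in Cu 1 and Cu 3. Without BTG4, the most abundant of them, the sums overlapped, with 9286 and 10941 FPKM in Control 1 and Control 2 and 12242 and 10601 FPKM in Cu 1 and Cu 3, and 10 of the 15 markers had a higher mean in Cu (median log2 fold change 0.24). Of the 13 cumulus and granulosa cell markers with values, 2 were at 0 throughout and 3 reached 1 FPKM, and their summed levels overlapped, with 20.1 and 28.1 FPKM in Control 1 and Control 2 and 29.4 and 20.6 FPKM in Cu 1 and Cu 3. Of the 5 blood and immune markers, 2 had values, and neither reached 1 FPKM. The part of these marker levels in the results below was not tested. Fewer oocytes of a kind and less RNA per oocyte cannot be told apart in pooled cells.

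The UBE2 transcripts differed widely in level. By the mean of the Control libraries, 8 genes stood at 100 FPKM or more, 11 between 10 and 100 FPKM, 7 between 1 and 10 FPKM and 6 below 1 FPKM. Together the 32 genes made up 0.823% and 0.896% of all FPKM in Control 1 and Control 2, and 0.903% and 0.913% in Cu 1 and Cu 3. The abundant genes UBE2D3, UBE2V2, UBE2C, UBE2V1 and UBE2N together held between 71.6% and 75.7% of the summed UBE2 level in every library. In Control, UBE2D3 was above all others in both libraries, while UBE2V2 and UBE2C, the next in order, overlapped. In Cu, UBE2C was above all others in both libraries, and UBE2V2 and UBE2D3 overlapped behind it.

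**Figure D1:**
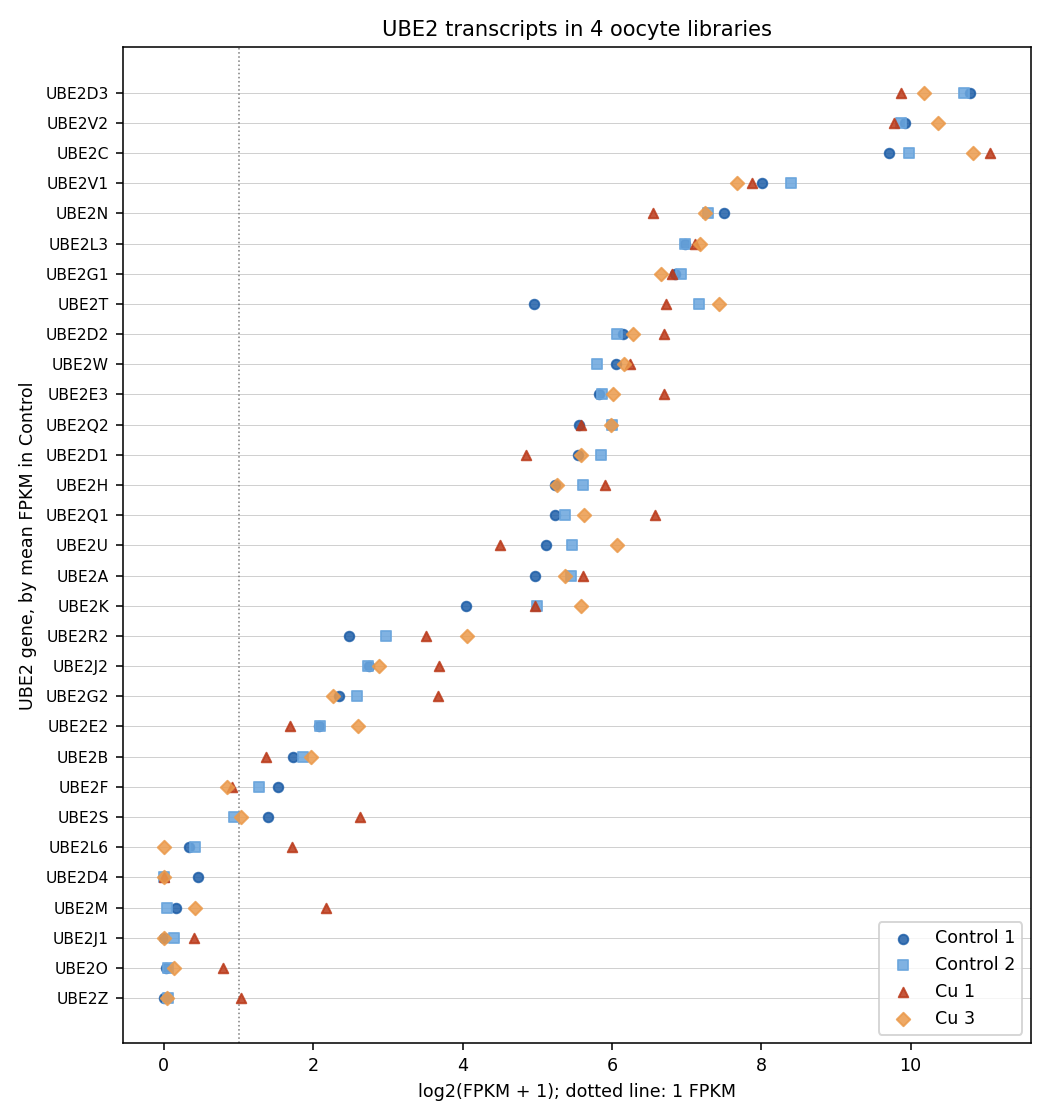
Level of 31 UBE2 genes in the 4 libraries, on the log2(FPKM + 1) scale (horizontal axis), with genes ordered by their mean FPKM in Control and 1 point per library. The libraries lie close together for most genes, UBE2C has both Cu points to the right of both Control points, UBE2D3 has both to the left, and Cu 1 stands to the right of the other libraries in 5 of the 6 genes at the bottom.

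UBE2C, which starts ubiquitin chains on targets of the APC/C, was higher in both Cu libraries. It had 838 and 1012 FPKM in Control 1 and Control 2 and 2137 and 1822 FPKM in Cu 1 and Cu 3. The groups did not overlap, and the levels put UBE2C above at least 99.4% of all genes with values in each library. The difference was 1.10 on the log2(FPKM + 1) scale (standard error (SE) 0.25, 95% interval 0.49 to 1.70), a ratio of 2.14. In limma's moderated test across 8541 genes the unadjusted p was 0.0044 and the adjusted p was 0.631, so neither UBE2C nor any other of the 8541 genes passed an adjusted p of 0.05. The call at an unadjusted p of 0.05 was lost without Control 1, where the log2 fold change was 0.96 and the p was 0.058. The authors' mean FPKM, over 3 libraries a group, were 1025 for Control and 2000 for Cu. UBE2C lies on chromosome 17 at 48018403 to 48021542 (Sscrofa11.1, RefSeq annotation).

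UBE2S, which extends the chains that UBE2C has begun, was weakly expressed beside it. It had 1.62 and 0.91 FPKM in Control 1 and Control 2 and 5.19 and 1.05 FPKM in Cu 1 and Cu 3. Cu 1 was high and Cu 3 lay between the Control libraries, so the groups overlapped. The log2 fold change was 0.67 (SE 0.58, adjusted p = 0.808 in limma's test), and it was -0.13 without Cu 1 and 1.47 without Cu 3. The level of UBE2C was 517 and 1112 times that of UBE2S in Control 1 and Control 2 and 412 and 1735 times in Cu 1 and Cu 3. UBE2S lies on chromosome 6 at 59565001 to 59570484.

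The APC/C itself was described by a list of 17 subunits and regulators, of which 15 were tested. At an unadjusted p of 0.05 there was 1 gene higher and 1 lower in Cu, where 5.58% and 1.43% of all tested genes were called, and the median log2 fold change was 0.023. ANAPC11, the RING subunit that receives the loaded E2, had 42.2 and 32.1 FPKM in Control 1 and Control 2 and 71.0 and 59.6 FPKM in Cu 1 and Cu 3, a log2 fold change of 0.80 (SE 0.32, adjusted p = 0.682). CDC16, a scaffold subunit, had 26.7 and 27.3 FPKM in Control 1 and Control 2 and 16.2 and 13.9 FPKM in Cu 1 and Cu 3, a log2 fold change of -0.81 (SE 0.32, adjusted p = 0.685). In both genes the groups did not overlap. Every listed subunit was below UBE2C in every library, the highest being ANAPC15 with 371 FPKM in Cu 1.

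**Figure D2:**
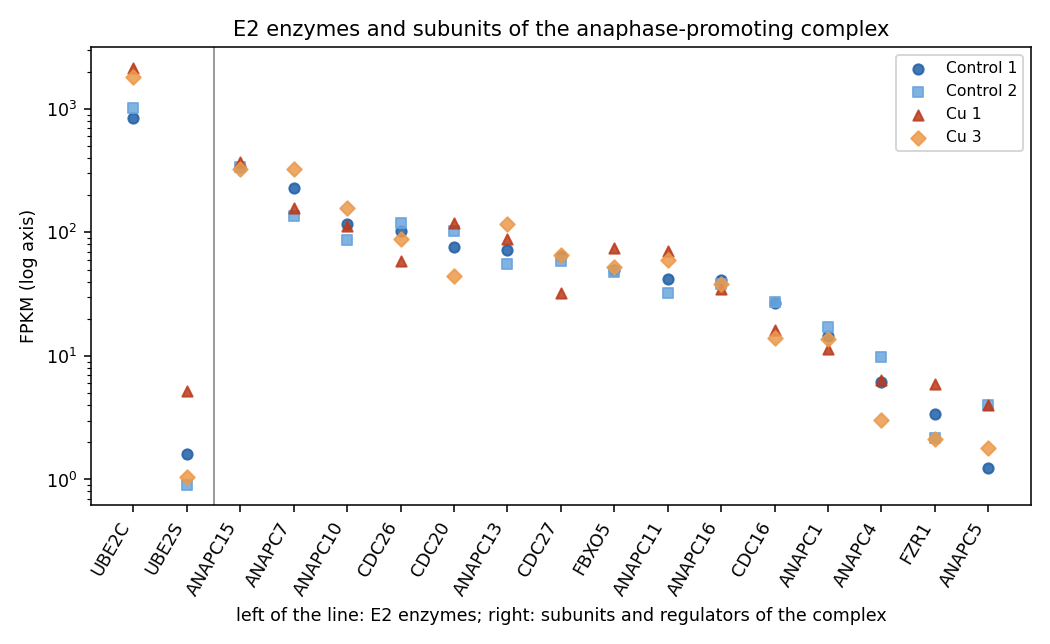
FPKM on a log axis of UBE2C and UBE2S (left of the line) and of the 15 tested subunits and regulators of the anaphase-promoting complex (right of the line), with 1 point per library. UBE2C lies above every subunit in all libraries and UBE2S, with 0.91 to 5.19 FPKM, among the lowest.

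The UBE2D enzymes (UbcH5) work with many E3 ligases and usually place the first ubiquitin. UBE2D3 had 1776 and 1678 FPKM in Control 1 and Control 2 and 935 and 1155 FPKM in Cu 1 and Cu 3. Both Cu libraries were below both Control libraries, and no other UBE2 gene was lower in Cu at an unadjusted p of 0.05. The difference was -0.73 on the log2 scale (SE 0.24, 95% interval -1.32 to -0.14, unadjusted p = 0.024, adjusted p = 0.656 in limma's test). This unadjusted p was 0.051 without the filter on low values, 0.067 without the variance trend, 0.16 without Control 1 and 0.12 without Control 2. The authors' means, over 3 libraries a group, were 1583 for Control and 1261 for Cu. The mean for Control lay below both Control libraries analysed here, and the mean for Cu above both Cu libraries. The lack of overlap therefore covers only the libraries analysed here. UBE2D3 lies on chromosome 8 at 118218224 to 118229002.

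The other UBE2D genes were far lower and did not follow a common direction. UBE2D2 had 69.9 and 66.4 FPKM in Control 1 and Control 2 and 103 and 76.8 FPKM in Cu 1 and Cu 3, a log2 fold change of 0.38 (SE 0.30), while the authors' means went the other way, with 88.0 for Control and 80.2 for Cu. UBE2D1 had 45.7 and 56.7 FPKM in Control 1 and Control 2 and 27.9 and 47.0 FPKM in Cu 1 and Cu 3, a log2 fold change of -0.48 (SE 0.37). UBE2D4 was listed at 0 in all libraries but Control 1, which had 0.37 FPKM. The UBE2D proteins are nearly identical in sequence, and how the counting divided reads between such copies is not given in the sources used here, so the split between them is uncertain. The sum of UBE2D1, UBE2D2 and UBE2D4 was 116 and 123 FPKM in Control 1 and Control 2 and 131 and 124 FPKM in Cu 1 and Cu 3, a small part of the UBE2D3 level.

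UBE2C and UBE2D3 exchanged places in the order of the family, a comparison chosen after their values were seen. UBE2D3 held 33.0% and 30.4% of the summed UBE2 level in Control 1 and Control 2 and 15.7% and 18.8% in Cu 1 and Cu 3. UBE2C held 15.6% and 18.3% in Control 1 and Control 2 and 35.8% and 29.7% in Cu 1 and Cu 3. The ratio of UBE2C to UBE2D3 was 0.472 and 0.603 in Control 1 and Control 2 and 2.28 and 1.58 in Cu 1 and Cu 3. Multiplying a library by a single factor does not change this ratio, but quantile normalization can. For such a ratio, 0.333 is the smallest two-sided p that an exact permutation of 2 and 2 libraries allows. Without UBE2C, the summed level of the family was 4537 and 4507 FPKM in Control 1 and Control 2 and 3834 and 4318 FPKM in Cu 1 and Cu 3.

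**Figure D3:**
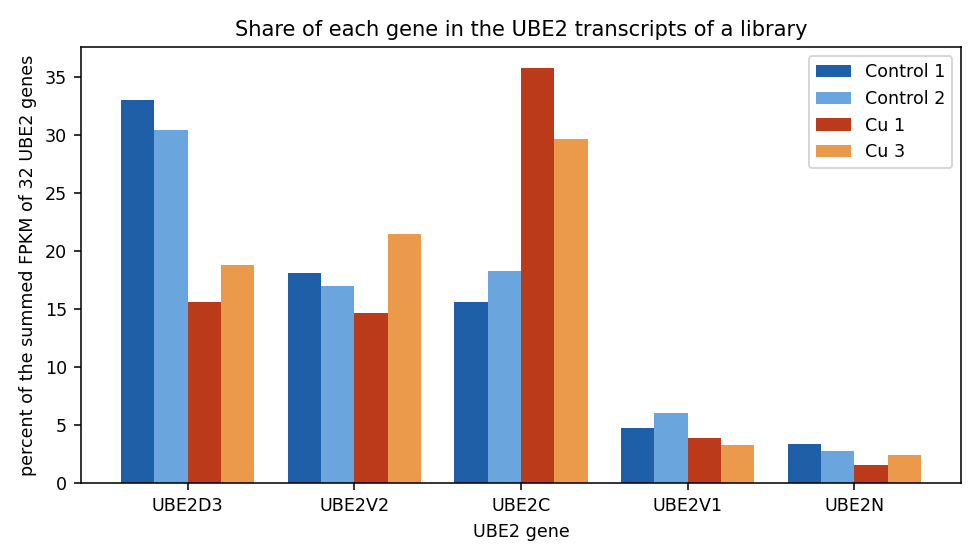
Share of 5 abundant UBE2 genes in the summed FPKM of all 32 UBE2 genes (percent, vertical axis), 1 bar per library. UBE2D3 holds 30.4% or more in both Control libraries and 18.8% or less in both Cu libraries, and UBE2C holds 18.3% or less in Control and 29.7% or more in Cu.

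UBE2E2 and UBE2E3 belong to a sister group of the UBE2D enzymes with longer amino-terminal ends. UBE2E3 had 55.7 and 57.2 FPKM in Control 1 and Control 2 and 103 and 63.5 FPKM in Cu 1 and Cu 3, so the groups did not overlap, with a log2 fold change of 0.51 (SE 0.34, adjusted p = 0.777). UBE2E2 was much lower, with 3.23 and 3.28 FPKM in Control 1 and Control 2 and 2.24 and 5.04 FPKM in Cu 1 and Cu 3, which lay on either side of the Control libraries.

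UBE2N builds the ubiquitin chains used in signalling and DNA repair, for which it pairs with UBE2V1 or UBE2V2, E2-like proteins without a catalytic cysteine. UBE2N had 180 and 155 FPKM in Control 1 and Control 2 and 92.6 and 151 FPKM in Cu 1 and Cu 3, a log2 fold change of -0.50 (SE 0.34, adjusted p = 0.779), with Cu 3 just below the Control libraries. UBE2V1 had 257 and 336 FPKM in Control 1 and Control 2 and 233 and 203 FPKM in Cu 1 and Cu 3, a log2 fold change of -0.43 (SE 0.28, adjusted p = 0.766). In both genes the groups did not overlap, but the 95% intervals, -1.32 to 0.33 and -1.12 to 0.25, included 0. For UBE2N the authors' means were 150.0 for Control and 152 for Cu, the opposite order.

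UBE2V2 was the most abundant of the 3, with 975 and 937 FPKM in Control 1 and Control 2 and 877 and 1317 FPKM in Cu 1 and Cu 3, and the Cu libraries lay on either side of Control. The level of UBE2V2 was 5.41 and 6.04 times that of its partner UBE2N in Control 1 and Control 2 and 9.47 and 8.72 times in Cu 1 and Cu 3. UBE2V1 and UBE2V2 together exceeded UBE2N in every library, by a factor of between 6.84 and 12.0. As mRNA levels, these ratios do not give the ratio of the proteins.

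UBE2R2, UBE2K, UBE2G1 and UBE2G2 build chains that send proteins to the proteasome. UBE2R2, a partner of the cullin-RING ligases, had 4.56 and 6.89 FPKM in Control 1 and Control 2 and 10.4 and 15.8 FPKM in Cu 1 and Cu 3. The groups did not overlap, and the log2 fold change was 1.06 (SE 0.41, 95% interval 0.069 to 2.05, unadjusted p = 0.040, adjusted p = 0.666 in limma's test). This p was 0.12 after quantile normalization, 0.074 after median-of-ratios scaling, 0.29 without Control 1, 0.11 without Control 2 and 0.053 without Cu 3. The authors' means were 5.89 for Control and 12.4 for Cu. UBE2R2 lies on chromosome 10 at 32894424 to 33014473 and overlaps UBAP2 in the annotation.

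UBE2K had 15.6 and 30.9 FPKM in Control 1 and Control 2 and 30.4 and 47.0 FPKM in Cu 1 and Cu 3, a log2 fold change of 0.75 (SE 0.45), with Cu 1 slightly below Control 2. UBE2G1 was even across the libraries, with 114 and 120 FPKM in Control 1 and Control 2 and 111 and 100.1 FPKM in Cu 1 and Cu 3, and its 95% interval ran from -0.82 to 0.52. UBE2G2 works at the endoplasmic reticulum in the disposal of misfolded proteins and had 4.10 and 5.02 FPKM in Control 1 and Control 2 and 11.8 and 3.82 FPKM in Cu 1 and Cu 3. Only Cu 1 was high, and the log2 fold change of 0.50 (SE 0.54) turned to -0.20 without it.

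UBE2J1 and UBE2J2 are anchored in the endoplasmic reticulum membrane. UBE2J2 had 5.73 and 5.68 FPKM in Control 1 and Control 2 and 11.9 and 6.36 FPKM in Cu 1 and Cu 3, a log2 fold change of 0.54 (SE 0.42) with both Cu libraries above Control. UBE2J1 was listed at 0 in Control 1 and Cu 3 and had 0.10 FPKM in Control 2 and 0.32 FPKM in Cu 1.

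UBE2A and UBE2B are the mammalian counterparts of yeast Rad6 and attach ubiquitin to PCNA and histone H2B. UBE2A was the main copy, with 30.5 and 42.7 FPKM in Control 1 and Control 2 and 48.1 and 40.3 FPKM in Cu 1 and Cu 3, against 2.32 and 2.64 FPKM and 1.57 and 2.92 FPKM for UBE2B. In neither gene were the groups apart, with log2 fold changes of 0.28 (SE 0.33) and -0.13 (SE 0.38). The level of UBE2A was between 13.1 and 30.6 times that of UBE2B.

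UBE2T, the E2 that with the ligase FANCL attaches ubiquitin to the Fanconi anaemia protein FANCD2, varied most between the Control libraries. It had 29.9 and 142 FPKM in Control 1 and Control 2 and 105 and 171 FPKM in Cu 1 and Cu 3. Control 1 was far below the rest and the groups overlapped. The log2 fold change was 1.02 with the largest standard error of the family (0.72, adjusted p = 0.779), and it ranged from -0.083 without Control 1 to 2.13 without Control 2. FANCL also had its lower Control level in Control 1, with 493 and 1067 FPKM in Control 1 and Control 2 and 372 and 862 FPKM in Cu 1 and Cu 3.

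The E2 enzymes of NEDD8, the modifier that switches on cullin ligases, had low levels in most libraries. UBE2F had 1.89 and 1.41 FPKM in Control 1 and Control 2 and 0.88 and 0.79 FPKM in Cu 1 and Cu 3, a log2 fold change of -0.52 (SE 0.33, adjusted p = 0.757) with both Cu libraries below Control. For UBE2F the authors' means were close, with 1.30 for Control, below both Control libraries, and 1.26 for Cu, above both Cu libraries. UBE2M had 0.12 and 0.03 FPKM in Control 1 and Control 2 and 3.52 and 0.34 FPKM in Cu 1 and Cu 3. UBE2L6, the E2 of the interferon-induced ISG15, had 0.26 and 0.34 FPKM in Control 1 and Control 2, 2.30 FPKM in Cu 1 and was listed at 0 in Cu 3.

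UBE2L3, which passes ubiquitin to HECT and RBR ligases, had 126 and 125 FPKM in Control 1 and Control 2 and 137 and 144 FPKM in Cu 1 and Cu 3. Its log2 fold change was 0.16 (SE 0.27), close to the median of all genes tested, and was -0.014 after median-of-ratios scaling. UBE2W, which modifies the amino terminus of proteins, had 65.4 and 54.5 FPKM in Control 1 and Control 2 and 74.9 and 70.8 FPKM in Cu 1 and Cu 3, a log2 fold change of 0.28 (SE 0.29). UBE2H, the partner of the CTLH ligase, and UBE2Q2 overlapped between the groups, with log2 fold changes of 0.16 and 0.0055.

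UBE2Q1 had 36.7 and 40.3 FPKM in Control 1 and Control 2 and 94.5 and 48.2 FPKM in Cu 1 and Cu 3, a log2 fold change of 0.80 (SE 0.40, adjusted p = 0.717) without overlap of the groups. UBE2U had 33.6 and 43.2 FPKM in Control 1 and Control 2, and the Cu libraries lay on opposite sides with 21.7 FPKM in Cu 1 and 66.0 FPKM in Cu 3. Its log2 fold change of -0.0033 (SE 0.55) was 0.78 without Cu 1 and -0.78 without Cu 3. UBE2O, a large hybrid of E2 and E3, and UBE2Z, which takes ubiquitin from the E1 enzyme UBA6, had at most 0.10 FPKM outside Cu 1, where they had 0.73 and 1.05 FPKM.

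For the comparison as a whole, 26 of the 32 genes reached 1 FPKM in at least 2 libraries and were tested. The 6 others were UBE2L6, UBE2D4, UBE2M, UBE2J1, UBE2O and UBE2Z. Of these, 3 reached 1 FPKM in Cu 1 alone and 3 in no library, and Cu 1 had the highest value in 5. At an adjusted p of 0.05 limma called 0 of the 26 genes and 0% of all 8541. At an unadjusted p of 0.05, UBE2C and UBE2R2 were higher in Cu, which is 7.69% of the 26 genes where the share of all tested genes was 5.58%. UBE2D3 alone was lower, which is 3.85% where the share of all tested genes was 1.43%. In either direction this made 3 genes, where 7.01% of all tested genes were called. No UBE2 gene combined such a p with a log2 fold change of 1.5 or more in size, as 1.87% of all tested genes did. Counts of 2 and 1 do not set the family apart from the other genes. With quantile normalization and with median-of-ratios scaling, 1 gene was higher (UBE2C) and 1 lower (UBE2D3).

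The Cu libraries were both above the Control libraries in 8 of the 26 genes, or 30.8%, against 25.4% of all tested genes, and below them in 5 genes, or 19.2%, against 13.4%. The mean was higher in Cu for 18 of the 26 genes, or 69.2%, against 64.3% of all tested genes. This split depended on the scaling, since 14 were higher after quantile normalization and 12 after median-of-ratios scaling. The median log2 fold change was 0.17 for the 26 genes and 0.16 for all tested genes. The scalings moved the median of all tested genes to -0.049 (quantile normalization) and 0.015 (median-of-ratios), and that of the 26 genes to 0.028 and -0.011. The log2 fold change of UBE2C under these scalings was 0.85 and 0.92, and that of UBE2D3 was -1.02 and -0.91.

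**Figure D4:**
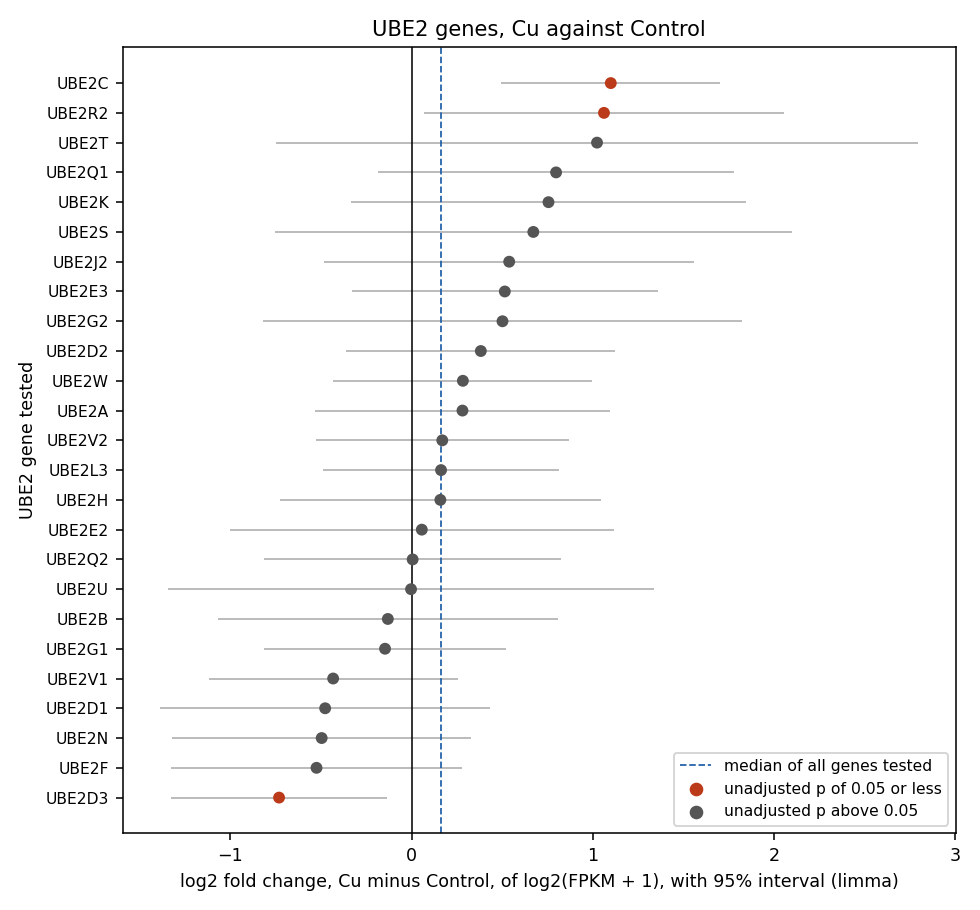
Log2 fold change of log2(FPKM + 1), Cu minus Control (horizontal axis), for 25 tested UBE2 genes, with 95% intervals from limma. Most intervals include 0. Those of UBE2C (0.49 to 1.70), UBE2R2 (0.069 to 2.05) and UBE2D3 (-1.32 to -0.14) do not, and the dashed line marks the median of all tested genes, 0.16.

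The Cu libraries differed from each other more than the Control libraries did. Over the 26 genes the median absolute difference on the log2 scale was 0.26 between Control 1 and 2 and 0.60 between Cu 1 and 3, close to the 0.27 and 0.56 of all tested genes. In 18 of the 26 genes the Cu libraries were further apart than the Control libraries. Both Cu libraries lay on the same side of the Control mean in 17 of the 26. The median difference from the Control mean was 0.32 in Cu 1 and 0.17 in Cu 3 for the UBE2 genes, and 0.31 in Cu 1 and 0.0023 in Cu 3 for all tested genes.

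**Figure D5:**
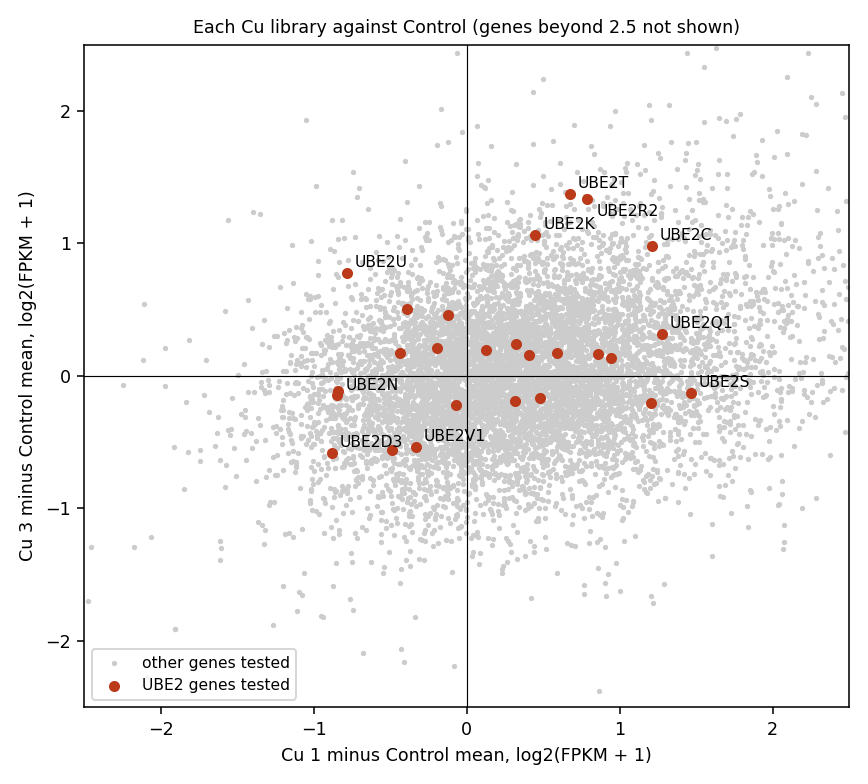
Difference of Cu 1 (horizontal axis) and Cu 3 (vertical axis) from the mean of the Control libraries, in log2(FPKM + 1), for the 26 tested UBE2 genes (red) and the other tested genes (grey). UBE2C is high in both Cu libraries and UBE2D3 low in both, whereas UBE2S is high in Cu 1 alone and UBE2U lies at -0.78 in Cu 1 and 0.78 in Cu 3.

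Upstream of the E2 enzymes, 8 E1 genes were tested, and 0 passed an unadjusted p of 0.05 in limma's test in either direction. Their median log2 fold change was 0.071. UBA1, the main E1 of ubiquitin, had 33.1 and 43.2 FPKM in Control 1 and Control 2 and 50.0 and 27.2 FPKM in Cu 1 and Cu 3. SAE1, a subunit of the SUMO E1, had the smallest p, with 18.3 and 28.4 FPKM in Control 1 and Control 2 and 49.1 and 20.6 FPKM in Cu 1 and Cu 3 (log2 fold change 0.46, SE 0.50, adjusted p = 0.841).

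Among the genes for ubiquitin itself, RPS27A, which encodes ubiquitin fused to a ribosomal protein, had 46.9 and 73.4 FPKM in Control 1 and Control 2 and 272 and 211 FPKM in Cu 1 and Cu 3, a log2 fold change of 2.01 (SE 0.34, adjusted p = 0.631). The polyubiquitin gene UBB was by far the most abundant, with 15631 and 15724 FPKM in Control 1 and Control 2 and 13873 and 17710 FPKM in Cu 1 and Cu 3. For RPS27A the authors' means were 115 for Control, above both Control libraries analysed here, and 218 for Cu. Ribosomal protein genes have many processed copies, with which they may share reads.

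Of 8 tested genes for ubiquitin-like proteins and their relatives, 1 was higher and 1 lower at an unadjusted p of 0.05, again beside 5.58% and 1.43% of all tested genes. UBL5 had 1410 and 1325 FPKM in Control 1 and Control 2 and 2230 and 2036 FPKM in Cu 1 and Cu 3 (log2 fold change 0.64, SE 0.23, adjusted p = 0.656), but the authors' means went the other way, with 2034 for Control and 1892 for Cu. ATG12, which is conjugated in autophagy, had 71.3 and 82.7 FPKM in Control 1 and Control 2 and 35.2 and 51.0 FPKM in Cu 1 and Cu 3 (log2 fold change -0.84, SE 0.33, adjusted p = 0.677). The authors' means for ATG12 lay closer together. They were 64.4 for Control, below both Control libraries analysed here, and 56.85 for Cu, above both Cu libraries.

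Among 7 tested genes with an E2 fold but another name, 1 was higher and 1 lower at this p, with the same shares of all tested genes. UFC1, the E2 of UFM1, had 11.0 and 7.84 FPKM in Control 1 and Control 2 and 28.6 and 24.9 FPKM in Cu 1 and Cu 3, a log2 fold change of 1.42 (SE 0.35, adjusted p = 0.631). UEVLD, which has an E2-like domain without a catalytic cysteine, had 30.7 and 36.4 FPKM in Control 1 and Control 2 and 7.22 and 13.8 FPKM in Cu 1 and Cu 3, a log2 fold change of -1.64 (SE 0.41, adjusted p = 0.631).

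Downstream, 31 tested ligases and regulators that act with E2 enzymes had a median log2 fold change of 0.15, with 2 genes higher and 2 lower at an unadjusted p of 0.05, where 5.58% and 1.43% of all tested genes were called. RBX1, the RING subunit of cullin ligases, had 103 and 103 FPKM in Control 1 and Control 2 and 276 and 213 FPKM in Cu 1 and Cu 3, a log2 fold change of 1.23 (SE 0.28, adjusted p = 0.631). SKP1, the adaptor of SCF ligases, had 275 and 321 FPKM in Control 1 and Control 2 and 502 and 487 FPKM in Cu 1 and Cu 3, a log2 fold change of 0.73 (SE 0.25, adjusted p = 0.656). On the lower side, SKP2, an F-box protein of SCF, had 38.2 and 42.4 FPKM in Control 1 and Control 2 and 12.5 and 16.4 FPKM in Cu 1 and Cu 3, a log2 fold change of -1.43 (SE 0.33, adjusted p = 0.631). PIAS1, a SUMO ligase, had 84.7 and 76.1 FPKM in Control 1 and Control 2 and 30.5 and 36.8 FPKM in Cu 1 and Cu 3, a log2 fold change of -1.23 (SE 0.30, adjusted p = 0.631). In these 4 genes the groups did not overlap in the libraries analysed here. The authors' means for Control and Cu were 116 and 218 for RBX1 and 381 and 493 for SKP1. They were 31.5 and 18.5 for SKP2 and 64.5 and 40.5 for PIAS1. In each gene the mean for Control lay outside Control 1 and Control 2, on the side of Cu. For SKP2 and PIAS1 the mean for Cu also lay outside Cu 1 and Cu 3, on the side of Control.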

How the data were processed

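Expression was measured in 4 libraries, each of 3 mature porcine oocytes, amplified by Smart-seq2. The authors deposited FPKM rounded to 2 decimals. The paper's methods give SOAPnuke, HISAT2, Bowtie2 and RSEM, whereas the submitters' processing notes in the labels name TopHat2 2.0.13, Cufflinks 2.2.1 and the build Sscrofa11.1, and which of them made the table is not stated. The smallest value above 0 was 0.01 in all 4 libraries, so the depth of the libraries is unknown and no detection limit is given. Group means given by the authors are printed as such, without SD. Statements that the groups did not overlap cover only the 4 libraries analysed here, not the others behind the authors' means.

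The 8541 genes that reached 1 FPKM in 2 or more libraries were compared on log2(FPKM + 1), which makes changes of weakly expressed genes smaller, with limma 3.58.1 in R 4.3.3 (variance trend, two-sided, Benjamini-Hochberg over the 8541 genes). The fit was tested on simulated data with the same spread in both groups. The Cu libraries here differed from each other more than the Control libraries did, which that test did not cover. Genes named are the UBE2 rows with values, 1 of which is counted but not reported here by name, and, of each other list, those at an unadjusted p of 0.05 or, failing that, the smallest p. The members and lists were chosen with earlier results of these data known. Coordinates come from RefSeq's table of Sscrofa11.1, which matched 32 of 32 identifiers. Sequences were not used here. Alternatives were another pseudocount, filters, scalings, no variance trend and leaving out each library.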

Additional observations from a re-analysis of the deposited data

How the results depend on the processing

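The log2 fold change of UBE2C lay between 0.85 and 1.10 under 6 other settings. These were a pseudocount of 0.1, no filter, a filter on all libraries, quantile normalization, median-of-ratios scaling and no variance trend. The filters and the variance trend act on a gene's p alone, so its log2 fold change could not move under them. The log2 fold change of UBE2C lay between 0.96 and 1.23 with each library left out. That of UBE2S lay between -0.13 and 1.47 with each library left out, and UBE2S was not tested under the filter on all libraries. The number of UBE2 genes higher in Cu at an unadjusted p of 0.05, 2 as reported, was 1 after quantile normalization and 1 after median-of-ratios scaling, and between 0 and 6 with each library left out. The number lower in Cu, 1 as reported, was 0 with no filter on low values and 0 with no variance trend, and between 0 and 4 with each library left out. At an adjusted p of 0.05 limma called 0 UBE2 genes in all of these settings except without Cu 3, where it called 7, and a group left with 1 library is assumed to vary like the other group. Over all tested genes these calls were 1755 without Cu 3, 186 without Cu 1 and 0 otherwise. Several signs turned. After quantile normalization UBE2E2 was at -0.19, UBE2Q2 at -0.14 and UBE2V2 at -0.050, and after median-of-ratios scaling UBE2E2 at -0.064, UBE2H at -0.016, UBE2L3 at -0.014, UBE2Q2 at -0.17 and UBE2V2 at -0.0087. With each library left out, log2 fold changes ranged from -0.44 to 0.17 for UBE2B, -0.39 to 0.51 for UBE2E2, -0.20 to 1.20 for UBE2G2, -0.16 to 0.48 for UBE2H, -0.22 to 0.23 for UBE2Q2, -0.083 to 2.13 for UBE2T, -0.78 to 0.78 for UBE2U and -0.12 to 0.46 for UBE2V2. The cause of these changes was not tested. Of 248 single-gene values under alternatives, 207 kept both direction and side of an unadjusted p of 0.05. Direction was fixed in advance under the filters and without the variance trend, where only the side of this p could change. No paired analysis was possible because the groups share only replicate number 1.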

Other observations

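OTUB1, a deubiquitinase that binds and holds back UBE2N and UBE2D enzymes, was singled out after its values were seen. It had 52.7 and 34.3 FPKM in Control 1 and Control 2 and 1232 and 53.3 FPKM in Cu 1 and Cu 3, so that Cu 1 stood far above the other libraries and Cu 3 just above Control 1 (log2 fold change 2.57, adjusted p = 0.728 in limma's test). NEDD8, the modifier carried by UBE2M and UBE2F, also stood out in Cu 1, with 152 and 139 FPKM in Control 1 and Control 2 and 616 and 184 FPKM in Cu 1 and Cu 3 (log2 fold change 1.20, adjusted p = 0.708). CDC34, the close relative of UBE2R2, had 22.9 and 18.5 FPKM in Control 1 and Control 2 and 60.1 and 17.6 FPKM in Cu 1 and Cu 3 (log2 fold change 0.65, adjusted p = 0.810), so its Cu libraries lay on either side of Control.

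AKTIP and TSG101, which have an E2-like domain without a catalytic cysteine, were lower in both Cu libraries than in both Control libraries, as was UEVLD, the third such gene of the list. AKTIP had 682 and 701 FPKM in Control 1 and Control 2 and 496 and 444 FPKM in Cu 1 and Cu 3 (log2 fold change -0.56, adjusted p = 0.708). TSG101 had at least 94.1 FPKM in both Control libraries and 64.6 and 69.0 FPKM in Cu 1 and Cu 3 (log2 fold change -0.49, adjusted p = 0.734). The direction was not particular to these genes. BIRC6, another gene of the list, had 9.96 and 9.40 FPKM in Control 1 and Control 2 and 7.14 and 8.41 FPKM in Cu 1 and Cu 3. This made 4 of the 7 tested genes of the list lower in both Cu libraries analysed here. For TSG101 the authors' means were 92.1 for Control, below both Control libraries, and 76.3 for Cu, above both Cu libraries. For BIRC6 and AKTIP the authors' means for Control, 8.77 and 680, also lay below both Control libraries. For UEVLD both means lay between the libraries of their group. Of the UBE2 proteins without the cysteine, UBE2V1 was lower in both Cu libraries and UBE2V2 overlapped. AKTIP, TSG101 and UEVLD were picked from the list after their values were seen, and 13.4% of all tested genes were lower in both Cu libraries.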
